A study of Mus musculus with 4 samples.

Results

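The genes of the antigen presentation pathways were followed across the endothelial cells (ECs) of mouse ear dermis. Of the 46517 gene identifiers in the count tables, 10 genes were taken by name. They are the class I heavy chains *H2-K1* and *H2-D1*, their light chain *B2m*, the peptide transporter subunits *Tap1* and *Tap2*, the immunoproteasome subunits *Psmb8* and *Psmb9*, and the class II genes *H2-Aa*, *H2-Ab1* and *Cd74*. All 10 passed the filter on low counts, the class II genes on few reads. Cells came from the ears of female C57Bl/6 mice (wild-type C57BL/6 J in the study's methods), 12 to 26 weeks old by the labels and somewhat younger by the study's methods, with no treatment named. The design describes the 2 replicates as a pool of 6 mice, with 2 plates of 384 wells each, named A and B, and read by the full-length, single-cell Smart-seq2 method without molecular identifiers. The sort kept CD31+, CD45- and Lyve1- cells, so it selected against leukocytes and against lymphatic ECs rich in Lyve1. There was 1 group of samples and no condition, and the comparisons are between classes of wells.

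MHC class I molecules sit on nearly every nucleated cell and show peptides from inside the cell to CD8+ T cells. The peptides are cut by proteasomes, of which the immunoproteasome is a form with exchanged catalytic subunits, and are carried into the endoplasmic reticulum by the TAP transporter, where they join a heavy chain and beta-2-microglobulin. MHC class II molecules show peptides from outside the cell to CD4+ T cells, are made mainly by dendritic cells, macrophages and B cells, and in other cells follow interferon gamma through the transactivator *Ciita*.

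Of 1536 wells, 697 fell into 4 classes, made without the 10 genes. Wells of blood ECs were clustered into an artery-like class (106 wells in replicate 1, 151 in replicate 2), a capillary-like class (132 and 68) and a vein-like class (57 and 40), and lymphatic wells were taken by at least 3 of 7 lymphatic markers at 100 CPM or more, CPM being the reads of a gene scaled to the same total in every well or sum (11 and 132). The artery-like class was led by 9 of 12 artery markers but was broad. Of its 257 wells 64 scored as artery, 37 as vein and 18 as capillary by their markers, and in replicate 2 its vein markers summed to 2357 CPM against 1684 for artery markers. The vein-like class was led by *Sele*, *Selp*, *Ackr1*, *Icam1* and *Il6*, of which several are adhesion and inflammatory genes. Marker levels in this paragraph are means over wells of the CPM summed over a marker list. The lymphatic markers reached 6157 CPM in replicate 1 and 10080 in replicate 2 in the lymphatic wells. In blood classes they stood at 20.3 to 230 CPM. Fibroblast markers summed to 306 and 1310 CPM in the lymphatic wells and 37.8 to 574 in blood classes, and leukocyte markers to 67.0 and 24.5 against 4.87 to 134 CPM. Mural markers summed to 293 and 147 CPM in the lymphatic wells and 392 to 1574 in blood classes. Pan-endothelial markers summed to 3718 and 2400 against 4270 to 6253 CPM, so both lists lay below every blood mean. Artery markers summed to 1670 and 1023 CPM in the lymphatic wells and 975 to 2138 in blood classes. Capillary markers summed to 1378 and 702 against 1667 to 16270 CPM, and vein markers to 1737 and 638 against 602 to 6633 CPM. The part of these cell types' RNA, that of blood ECs in lymphatic wells included, in the results below was not tested.

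The replicates differed in depth. The plates held 74739095 and 63091443 reads in replicate 1, and 31864976 and 35546726 in replicate 2. Median reads per well ran from 92974 to 254412 in blood classes and were 117747 and 46468.5 in the lymphatic wells, where 39 of the 132 wells of replicate 2 had fewer than 20000 reads. Reads of genes of other cell types were common. *Ccl21a*, a chemokine of lymphatic ECs, was read in 14.9% of blood wells of replicate 1 and 72.6% of replicate 2, and *Col1a1*, a fibroblast gene, in 93.0% to 93.4% and 22.1% to 26.5% by class. The source of these reads was not tested. No well had the counts of another.

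On the mm10 build, *H2-K1* lies at chr17:33996017-34000347 on the minus strand and *H2-D1* at chr17:35262730-35267499 on the plus strand. Between them stand *Psmb9* (chr17:34181987-34187764, minus), *Tap1* (chr17:34187553-34197225, plus), *Psmb8* (chr17:34197721-34201454, plus), *Tap2* (chr17:34203527-34216321, plus), *H2-Ab1* (chr17:34257689-34269419, plus) and *H2-Aa* (chr17:34282744-34287823, minus), while *B2m* lies at chr2:122147686-122153083 on the plus strand and *Cd74* outside this locus. *Tap1* and *Psmb9* start close to each other on opposite strands and overlap, and since no strand was stated for the counts, reads of the overlap cannot be told apart. Their RefSeq promoter windows, from 250 bases before to 50 bases after RefSeq's start, which for *Psmb9* lies inside the gene span given here, share 275 of 300 bases. Overlap and shared sequence limit the counts, since 50-base reads cannot always be placed. Windows of 50 bases also found in another gene made up 8.79% of *H2-K1*, 14.3% of *H2-D1*, 12.5% of *Psmb9*, 12.6% of *Tap2*, 6.47% of *Tap1* and 5.83% of *Psmb8*, and 0% of *B2m* and the class II members.

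The promoters of the 3 genes that make the assembled class I molecule are shown because these genes have the highest levels per kb of the 10 and the heavy chains carry the called difference described below. The sequences are RefSeq's for GRCm38.p6, read 5′ to 3′ in the direction of the gene. Starts are those of RefSeq, and for *H2-D1* that start lies inside the gene span given above, so the stretch shown does too. For *H2-K1* the 150 bases before the start are given (chr17:34000348-34000497, minus strand), for *H2-D1* the 30 bases from 171 to 142 before it (chr17:35262923-35262952, plus strand), and for *B2m* the bases from 150 to 2 before it (chr2:122147537-122147685, plus strand). Capitals mark GGGG and CCCC set 3 letters apart, as in sites of NF-kappaB, GAAA and GAAA or GAA and GAAA set 2 letters apart, as in sites of interferon regulatory factors, and CCAAT, each on either strand.
H2-K1: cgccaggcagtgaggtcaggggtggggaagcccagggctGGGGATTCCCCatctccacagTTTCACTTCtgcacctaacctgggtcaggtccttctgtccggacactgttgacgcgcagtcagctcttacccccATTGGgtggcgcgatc
H2-D1: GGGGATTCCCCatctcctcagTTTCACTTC
B2m: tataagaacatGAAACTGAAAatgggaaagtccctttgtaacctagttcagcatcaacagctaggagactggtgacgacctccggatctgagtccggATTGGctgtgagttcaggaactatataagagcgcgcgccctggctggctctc

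The GGGG and CCCC pair and the GAA and GAAA pair stood next to each other in both heavy chain promoters, with the same letters in the capitals of each. The *B2m* window held the GAAA and GAAA pair and no GGGG and CCCC pair. Over all 32851 promoter windows of that length, the GGGG and CCCC pair was found in 1.01%, the GAAA and GAAA pair in 3.44%, the GAA and GAAA pair in 7.52% and CCAAT in 37.4%. A window was given for 7 of the 10 genes. The windows of *Psmb8*, *Psmb9*, *Tap1* and *H2-Aa* held none of the 3 pairs. These matches describe the letters and no binding was measured.

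All 3 genes of the assembled class I molecule were abundant in every class of blood ECs. Levels are given as CPM of the reads summed over a class in 1 replicate, scaled by trimmed mean of M values (TMM). *H2-K1* stood at 1777 CPM in replicate 1 and 1584 in replicate 2 in artery-like wells, 1488 and 1867 in capillary-like wells and 1470 and 1744 in vein-like wells. The classes did not keep their order between the replicates. *H2-D1* stood at 2083 and 1717 CPM in artery-like, 1961 and 1932 in capillary-like and 2006 and 2030 in vein-like wells. Class means of *H2-D1* were 1900 ± 259, 1946 ± 20.3 and 2018 ± 16.5 CPM (SD, n = 2 replicates), and the largest SD exceeded every gap between them. *B2m* stood at 1279 and 1254 CPM in artery-like, 1435 and 1361 in capillary-like and 1162 and 1072 in vein-like wells. For *B2m* alone of the 3 genes the classes kept 1 order in both replicates, capillary-like, artery-like, vein-like. The whole spread of the 6 blood sums was 1.27 times for *H2-K1*, 1.21 times for *H2-D1* and 1.34 times for *B2m*.

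**Figure D1:**
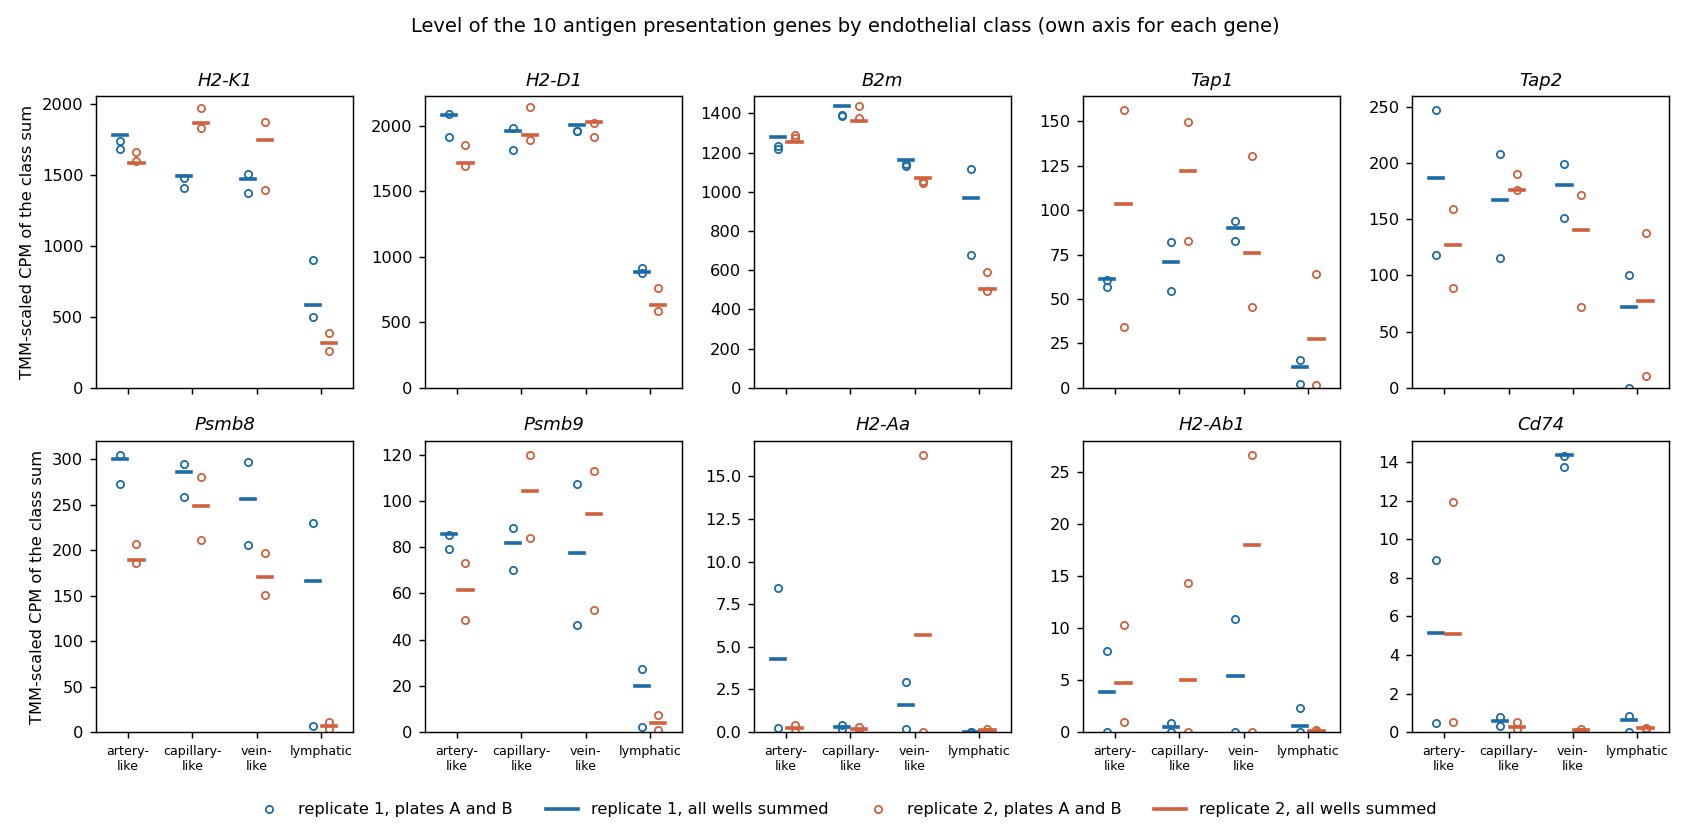
Level of each of the 10 genes (TMM-scaled CPM of the class sum, on an axis of its own for each gene) in artery-like, capillary-like, vein-like and lymphatic wells, with a line for each replicate and an open circle for each of its plates, whose sums were scaled in a run of their own. *H2-K1* stands between 1470 and 1867 CPM in all 6 blood sums and at 586 and 311 CPM in the lymphatic sums, and the replicate sums of the class II genes lie at or under 17.9 CPM in every class.

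The genes that make and move the peptides were lower and varied more. *Psmb8*, which replaces the constitutive subunit *Psmb5* in the immunoproteasome, stood at 300 and 190 CPM in artery-like, 286 and 249 in capillary-like and 256 and 170 in vein-like wells, higher in replicate 1 in each class. *Psmb9*, which replaces *Psmb6*, lay between 61.5 and 104 CPM over the 6 blood sums. *Tap2* lay between 127 and 187 CPM and *Tap1* between 61.0 and 122 CPM. In each of these genes the range within a class overlapped that of the others.

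None of the 10 genes was called between classes of blood ECs. Across 16063 genes, edgeR's quasi-likelihood test on the 8 sums with the replicate as a block called 0 genes between artery-like and vein-like wells (0.0%) and 0 between capillary-like wells and the mean of the other two (0.0%), with 535 (3.33%) and 557 (3.47%) genes at an unadjusted p below 0.05 and none of the 10 among them. DESeq2 called 100 genes (0.623%) and 146 genes (0.909%), again none of the 10, and limma called 0 in both. The 7 class I pathway genes differed by −0.29 to 0.19 on the log2 scale between artery-like and vein-like wells and by −0.01 to 0.32 in the capillary comparison. The data bound the heavy chains closely and the immunoproteasome loosely. For artery-like over vein-like wells the 95% interval of the fold was 0.612 to 1.77 for *H2-K1*, 0.639 to 1.37 for *H2-D1* and 0.702 to 1.84 for *B2m*, but 0.265 to 4.87 for *Psmb8* and 0.227 to 2.94 for *Psmb9*. With 3 other ways of making the classes (a limit of 300 CPM on non-endothelial genes, marker scores, and a finer clustering) all 7 genes lay above zero in artery-like over vein-like wells, by 0.31 to 0.65, 0.22 to 0.82 and 0.11 to 0.71, none called. In the capillary comparison they spanned −0.56 to 0.46 with marker scores, 2 of 7 above zero against 6 of 7, and all 7 lay above zero in 10 of 17 other fits, again with none called.

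Both heavy chains were lower in the lymphatic wells than in the blood classes. *H2-K1* stood at 586 CPM in replicate 1 and 311 in replicate 2, and in single plates at 496, 899, 259 and 385 CPM (plates A and B of replicate 1, then of replicate 2), against 1371 to 1966 CPM over the 12 blood sums per plate. *H2-D1* stood at 880 and 630 CPM, and in the plates at 916, 878, 764 and 588, against 1692 to 2146 CPM. No lymphatic plate overlapped a blood plate in either gene. That held for 2.44% of all genes tested, and among the 10 also for *Psmb9*. Against the mean of the 3 blood classes *H2-K1* fell by 1.91 on the log2 scale (SE 0.31, edgeR quasi-likelihood adjusted p = 0.0155), which is 3.75-fold lower with a 95% interval on the log2 scale of −2.62 to −1.20. *H2-D1* fell by 1.39 (SE 0.21, adjusted p = 0.0126), 2.61-fold lower with an interval of −1.88 to −0.90. They were the only members edgeR called, 2 of 10, where 3.49% of all genes were called in either direction and 1.76% lower. The median of all genes tested was −0.20 in this comparison, and both changes exceed it.

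The call for *H2-D1* was made in each of 17 other fits, and that for *H2-K1* in 15. Among these, the fits on sums per plate and those without a replicate take plates that share a replicate as separate units. DESeq2, which called 14.8% of all genes, and limma, which called 5.79%, called both heavy chains and also *Tap1* and *Psmb9*, and limma also *Psmb8*. *H2-K1* missed the threshold with plate B alone (−1.33, adjusted p = 0.136) and without replicate 2 (−1.12, adjusted p = 0.0565, plates of replicate 1). Its size differed between replicates, at −1.32 in replicate 1, with its 11 lymphatic wells, and −2.47 in replicate 2. Without wells that had a read of any of 7 leukocyte genes, an alternative chosen after the data were seen, the differences were −1.88 for *H2-K1* (adjusted p = 0.012) and −1.10 for *H2-D1* (adjusted p = 0.0415).

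The estimate for *B2m* was smaller than for the heavy chains and did not pass the test, though it did in 3 of 17 other fits. It stood at 970 and 506 CPM, in the plates at 1116, 676, 590 and 491, against 1046 to 1439 CPM over the blood plates, so plate A of replicate 1 lay among the blood plates. The difference was −0.81 (SE 0.26, 95% interval −1.41 to −0.21, adjusted p = 0.176), with −0.30 in replicate 1 and −1.27 in replicate 2. It passed with sums per plate (−0.82, adjusted p = 0.0107), with thinned wells (−1.02, adjusted p = 0.0412) and without replicate 1 (−1.24, adjusted p = 0.0231, plates of replicate 2). The first and last of these fits take plates that share a replicate as separate units, so their p-values do not measure spread between replicates alone. Per kb of transcript, the scale on which genes can be set side by side, *H2-K1* and *H2-D1* together exceeded *B2m* by 1.11 to 1.64 times in the 6 blood sums and stood at 0.692 and 0.836 times *B2m* in the lymphatic sums. The heavy chains then summed to 1795 to 2089 CPM per kb in blood classes and 780 and 492 in lymphatic wells, and *B2m* to 1247 to 1669 against 1127 and 588 CPM per kb. This ratio did not overlap between blood and lymphatic sums, and how often that holds for ratios of other genes was not counted.

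**Figure D2:**
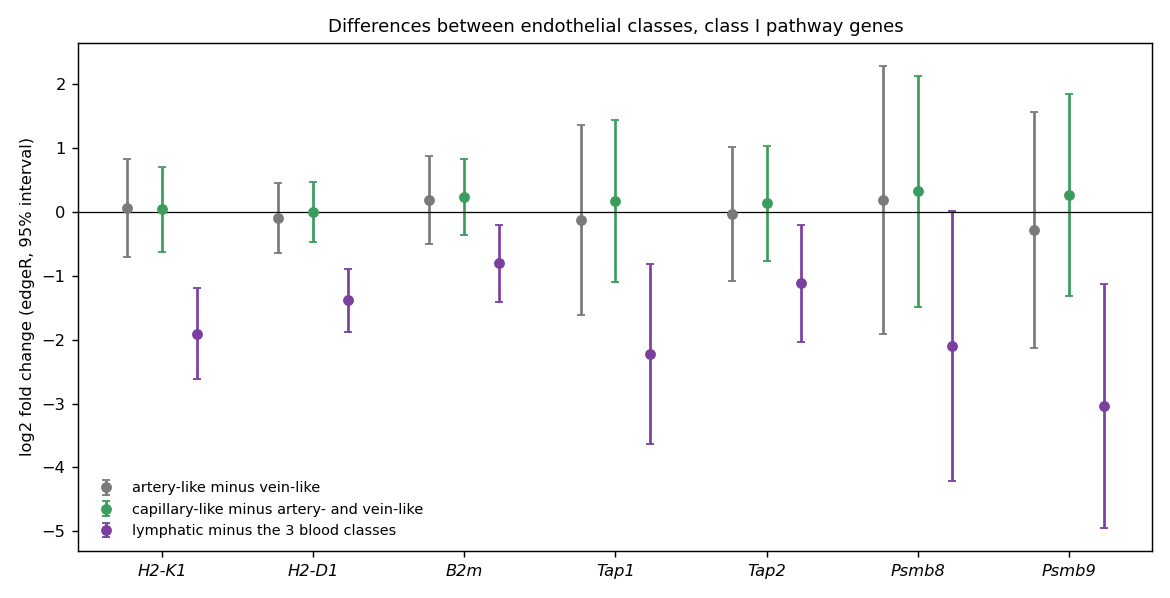
Difference in level of the 7 class I pathway genes (log2 scale, edgeR's estimate as a point with its 95% interval as a bar) between artery-like and vein-like wells, between capillary-like wells and the mean of the other two, and between lymphatic wells and the mean of the 3 blood classes. All intervals of the first 2 comparisons cross zero, the 7 lymphatic estimates lie between −3.04 and −0.81, and of these *H2-K1* and *H2-D1* pass the test.

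Among the class I pathway genes, the transporter and immunoproteasome genes had the widest errors. *Tap1* stood at 11.5 and 27.7 CPM in the lymphatic wells, in the plates at 15.4, 2.35, 63.8 and 1.69, against 34.4 to 156 CPM over the blood plates, a difference of −2.22 (SE 0.61, edgeR adjusted p = 0.112, DESeq2 0.00201, limma 0.0241). *Tap2* stood at 71.7 and 76.9 CPM, with plates from 0.0 to 138, and differed by −1.12 (SE 0.40, adjusted p = 0.219). *Psmb9* stood at 20.1 and 3.74 CPM, in the plates at 27.3, 2.35, 7.51 and 1.12, all below the 46.1 to 120 CPM of the blood plates. Its difference was −3.04 (SE 0.83, edgeR adjusted p = 0.109, DESeq2 0.00192, limma 0.0382), with −1.91 in replicate 1 and −4.44 in replicate 2. *Psmb8* stood at 166 and 6.60 CPM and gave −2.09 (SE 0.92, edgeR adjusted p = 0.319, DESeq2 0.141, limma 0.0413). The replicates stood far apart for *Psmb8*, at −0.65 and −4.89, and within replicate 1 plate A held 230 CPM and plate B 7.04. Its 11 lymphatic wells had a median of 16.6 CPM, an upper quartile of 60.3 and a highest value of 917, so a few wells carried that sum. For all 7 class I pathway genes the lymphatic difference was below zero in both replicates, with a median of −1.91, and 6 of the 7 had an unadjusted p below 0.05, as had 15.9% of all genes and 8.88% on the lower side.

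The constitutive proteasome subunits did not show this pattern. *Psmb5* differed by −0.003, *Psmb6* by 0.18 and *Psmb7* by 0.29 between lymphatic and blood wells, with adjusted p from 0.778 to 1.0. *Psmb10*, the third exchanged subunit and the partner of *Psmb7*, differed by −2.54 (SE 0.87, edgeR adjusted p = 0.199, DESeq2 0.0359, limma 0.0371). In blood classes *Psmb8* stood at 1.56 to 2.75 times *Psmb5* per kb, while in lymphatic wells it stood at 1.75 times in replicate 1 and 0.0456 times in replicate 2. *Psmb9* stood at 0.202 to 0.463 times *Psmb6* in blood classes and 0.0408 and 0.0167 times in lymphatic wells. The ratio of *Psmb10* to *Psmb7* was 0.795 to 1.69 in blood classes and 0.391 and 0.0271 in lymphatic wells. For the last 2 pairs both lymphatic values lay below all 6 blood values, and for the first pair that held in replicate 2 only. How often other pairs of genes separate in this way was not counted, and edgeR called neither *Psmb9* nor *Psmb10*.

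**Figure D3:**
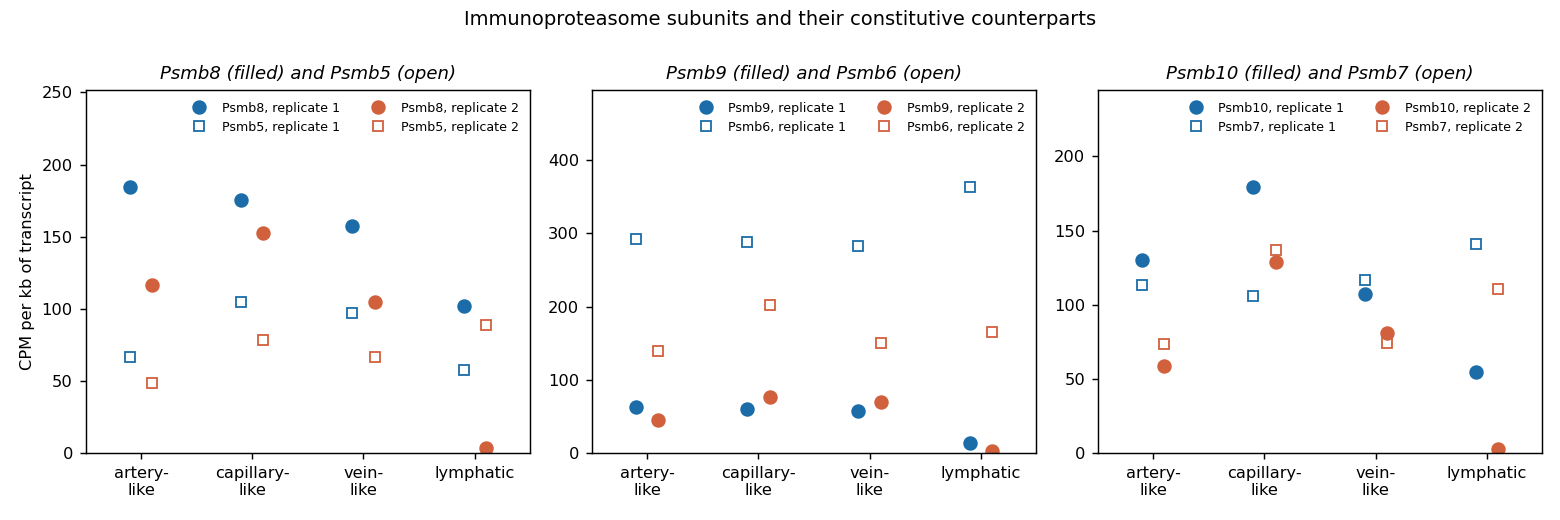
Level of the 3 immunoproteasome subunits (filled circles) and of the constitutive subunits they replace (open squares), in CPM per kb of transcript, for each class and replicate. *Psmb9* stands below *Psmb6* in every class, and in the lymphatic wells of replicate 2 all 3 immunoproteasome subunits lie at or under 4.05 CPM per kb while *Psmb5*, *Psmb6* and *Psmb7* lie at 88.8 or more.

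At an equal total of reads, fewer lymphatic wells of replicate 2 had a read of the class I genes than blood wells. The number of genes read was not matched. Before thinning its median was 2123 in these lymphatic wells and 2636 to 3660 in blood classes of replicate 2. Each well was thinned to 20000 reads, which left out 13, 8, 0 and 39 wells of replicate 2 in the artery-like, capillary-like, vein-like and lymphatic classes and none of replicate 1. *H2-K1* was then read in 95% to 98.5% of wells over the 6 blood class and replicate pairs, and in 10 of 11 (90.9%) and 51 of 93 (54.8%, exact 95% interval 44.2% to 65.2%) lymphatic wells. Before thinning these lymphatic shares were 100.0% and 81.1%, against 96.7% to 100.0% in blood classes. *H2-D1* was read in 100.0% and 94.5% of all thinned blood wells and 100.0% and 75.3% of lymphatic wells, and *B2m* in 100.0% and 94.5% against 90.9% and 86.0%. Intervals cover counting error only, and wells of 1 replicate share their pool.

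The whole set of *H2-K1*, *H2-D1* and *B2m* was read in 84.8% to 98.5% of thinned blood wells, and in 81.8% and 40.9% of lymphatic wells. The pathway genes were read less often. *Psmb8* was read in 64.2% and 33.3% of artery-like, 58.3% and 43.3% of capillary-like and 71.9% and 52.5% of vein-like wells, and in 36.4% and 5.38% of lymphatic wells. Without thinning, *Psmb8* was read in 88.1% and 49.0% of all blood wells and 72.7% and 18.2% of lymphatic wells. At least 1 of *Psmb8*, *Psmb9* and *Psmb10* was read in 47.8% to 98.2% of thinned blood wells and 72.7% and 16.1% of lymphatic wells, and at least 1 of *Psmb5*, *Psmb6* and *Psmb7* in 50.7% to 94.7% and in 100.0% and 57.0%. For *Tap1* the thinned shares were 21.0% and 16.8% of all blood wells and 9.09% and 4.30% of lymphatic wells, and for *Tap2* 42.4% and 25.2% against 27.3% and 8.60%. In replicate 1 a share over 11 lymphatic wells is too coarse to separate from the blood wells for most genes, and its wide intervals overlap theirs.

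**Figure D4:**
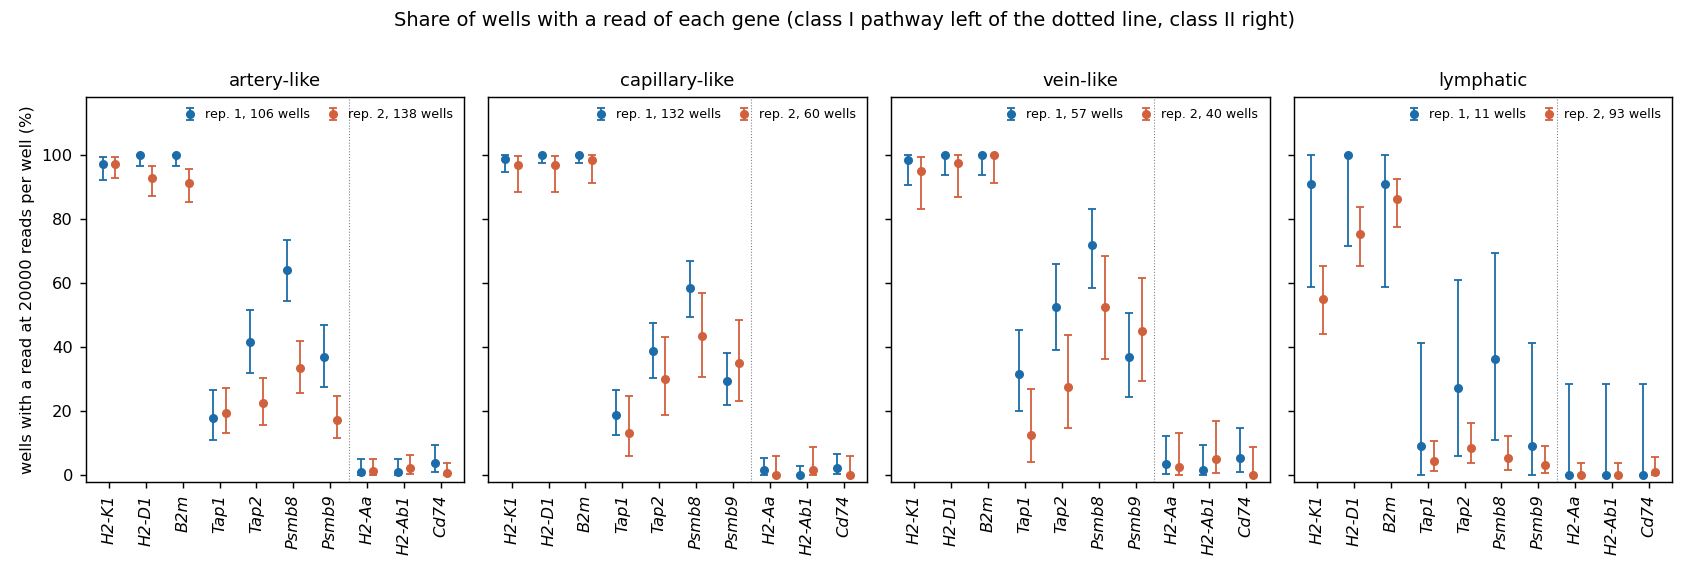
Share of wells with at least 1 read of each gene after thinning to 20000 reads per well (%), with exact 95% binomial intervals, for both replicates of the 4 classes; the dotted line parts class I pathway from class II genes. *H2-K1*, *H2-D1* and *B2m* are read in over 90% of blood wells in every class and replicate, and class II genes in under 10% of wells everywhere.

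Single wells ranged widely around these sums. In artery-like wells of replicate 1 *H2-K1* ran from 38.3 to 4640 CPM with a median of 1589 and quartiles of 887 and 2230, and in replicate 2 from 0.0 to 5985 with a median of 973. The median was 1351 and 1823 CPM in capillary-like wells and 1382 and 1689 in vein-like wells. In lymphatic wells it was 341 and 60.6 CPM, and the upper quartiles, 807 and 281, lay below the median of every blood class in the same replicate. The mean per well in the lymphatic wells of replicate 2 depended on the scaling, at 277 CPM by the total of each well and 557 by scran size factors, both below the blood classes of that replicate, whose lowest means were 1312 and 1443. The highest lymphatic well of replicate 2 reached 4596 CPM, which is within the range of the blood wells. Within a class and replicate, Spearman's rho between *H2-K1* and *H2-D1* over wells was 0.284 to 0.653 in blood classes and 0.136 and 0.114 in lymphatic wells, over 11 to 138 wells that share a replicate and its plates. For *H2-K1* and *B2m* it was 0.211 to 0.596 in blood classes and 0.373 and 0.047 in lymphatic wells, and for *H2-D1* and *B2m* 0.061 to 0.516 and 0.718 and 0.132, so no single order of the classes held over the 3 pairs.

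The other genes of the pathways gave 1 call by edgeR. Of 52 genes listed beside the 10, 41 were tested, and the lymphatic comparison called 1 lower and 0 higher, where 1.76% of all genes were called lower. Their median was −0.41 against −0.20 for all genes. The gene was *H2-Q6*, a nonclassical class I heavy chain of the Qa2 group, at 54.7 to 98.7 CPM in blood classes and 2.43 and 2.86 in lymphatic wells (−4.87, SE 0.73, adjusted p = 0.0117). Its reads are uncertain, since 35.0% of its 50-base windows occur in another gene. Genes of the list that are named from here on without a call, apart from *Nlrc5*, *Ciita* and the proteasome subunits above, were picked after their values were seen. The neighbour *H2-Q7*, with 40.2% of its windows shared, stood at 1.02 in replicate 1 and −1.92 in replicate 2. *H2-T23*, the ligand of natural killer receptors also named Qa1, stood at 0.50 and −0.48, so in both genes the replicates had opposite signs. By edgeR, 1 of 9 class I and nonclassical genes was called, and 0 of 6 loading, 7 proteasome, 5 class II, 11 regulator and 3 costimulation genes tested. DESeq2 also called *H2-Q4*, *Cd1d1*, *Tapbpl*, *Psmb10*, *Irf1* and *Ifngr1* lower, and limma *H2-Q4*, *Tapbp*, *Psmb10* and *Ifngr1*, where DESeq2 called 8.4% of all genes lower and limma 5.79% in either direction. *Cd1d1* stood at 0.0 and 0.0985 CPM in the lymphatic sums. It passed the filter on low counts only through blood sums, so nothing is read from its call. *Tapbp*, which tethers TAP to empty class I molecules, differed by −1.17 (edgeR adjusted p = 0.19, limma 0.0497), and the chaperones *Calr* and *Canx* by 0.08 and 0.24. No gene of the list was called between blood classes by edgeR, DESeq2 or limma, and none had an unadjusted p below 0.05.

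Regulators of the pathways were not called by edgeR in any comparison. *Irf1*, an interferon-responsive activator of class I genes, differed by −2.20 (SE 0.62, edgeR adjusted p = 0.119, DESeq2 0.0366, limma 0.0713) between lymphatic and blood wells, with −1.085 in replicate 1 and −3.601 in replicate 2. All 4 lymphatic plates lay below all blood plates, at up to 331 CPM against 342 CPM or more, as held for 2.44% of all genes. The interferon gamma receptor chain *Ifngr1* differed by −1.48 (SE 0.38, edgeR adjusted p = 0.0897, DESeq2 0.0333, limma 0.0218) and *Ifngr2* by 0.76 (adjusted p = 0.6). *Nlrc5*, the class I transactivator, stood at 1.79 in replicate 1 and −1.98 in replicate 2 (adjusted p = 0.921) at levels of 0.77 to 20.1 CPM over the 8 sums. *Ciita*, the class II transactivator, was under the count filter and had a read in 3 of 295 and 2 of 259 blood wells and in 0 of 11 and 0 of 132 lymphatic wells. With 3 wells as the limit of a count of 0, these allow shares of up to 27.3% and 2.27% (exact upper bounds 28.5% and 2.76%).

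Class II genes were near the limit of detection in all classes. *H2-Aa*, the alpha chain of I-A, stood at 0.176 to 5.68 CPM in blood classes and at 0.0 and 0.0985 CPM in lymphatic wells. *H2-Ab1*, its beta chain, stood at 0.465 to 17.9 CPM and at 0.607 and 0.0985 CPM, and *Cd74*, the invariant chain, at 0.0980 to 14.4 CPM and at 0.607 and 0.197 CPM. No class II member was called by edgeR or limma in any comparison, DESeq2 called *H2-Ab1* alone, lower in lymphatic wells (adjusted p = 0.0424, where it called 8.4% of all genes lower), and no fold between classes is given for levels so near zero. *H2-Ab1* had 1 read in each lymphatic sum and passed the filter on low counts only through blood sums, in which 12 and 7 wells had a read, so nothing is read from that call. Among the other class II genes, 5 of 11 had enough reads to be tested and 0 were called by edgeR in any of the comparisons, with 1 at an unadjusted p below 0.05 (*Lgmn*, a lysosomal protease, with a lymphatic difference of 1.05). Per kb, the class I heavy chains exceeded the 3 class II genes by 116 and 103 times in vein-like and 196 and 232 times in artery-like wells, the sums with most class II reads (278, 242, 220 and 174). The class II sum was highest in vein-like wells in both replicates, at 16.1 and 19.9 CPM per kb, but it rested on few wells.

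The share of wells with any class II read was low in every class. After thinning it was 5.42% and 3.78% of all blood wells (16 of 295 and 9 of 238) and 0.0% and 1.08% of lymphatic wells, where 0 of 11 allows up to 27.3% by that limit (exact upper bound 28.5%). Unthinned, it was 11.9% and 5.79% of blood wells and 18.2% and 3.03% of lymphatic wells. In wells rich in mural markers, a cell type that should lack class II, the thinned shares were 0.0% and 3.70% (0 of 10 and 1 of 27), too few wells to set a background. The share in wells that were set aside or unnamed was 6.46% and 3.37%. By class, it was 8.77% and 7.50% in vein-like, 5.66% and 3.62% in artery-like and 3.79% and 1.67% in capillary-like wells, with intervals that overlap.

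Most class II reads came from wells outside the classes. Of 4546 reads of the 3 genes in all wells, 1008 (22.2%) were in the 4 classes, which held 48.7% of all reads. The 5 wells with the highest summed level, all in no class, held 44.9%. Within a class and replicate the top well held 15.4% to 91.9% of the class II reads. Of 697 wells in the classes, 14 (2.01%) had a class II gene at 100 CPM or more and 1 had 2 of them, a vein-like well of replicate 1 with *H2-Ab1* at 203 and *Cd74* at 270 CPM. Only 1 well of all had the 3 genes at that level, a well of replicate 1 in the unnamed cluster with *Cd74* at 6164, *H2-Aa* at 3032, *H2-Ab1* at 740 and *H2-Eb1* at 2246 CPM. It also had the B cell gene *Cd79a* at 1507 CPM, the leukocyte gene *Ptprc* at 18.3 CPM and *Csf1r* at 9.13 CPM. The other leukocyte markers of the 12 listed had no read in it. Endothelial and mural genes were read as well, with *Pecam1* at 237, *Cdh5* at 374 and summed mural markers at 1534 CPM. What kind of cell this well held was not tested. By the mean over the wells of either replicate, leukocyte markers were at 10 CPM or more for 1 of 12 genes in artery-like wells. The count was 0 in capillary-like, 0 in vein-like and 2 in lymphatic wells. *Itgax* and *Cd207*, markers of dendritic and Langerhans cells, had no read in any class.

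**Figure D5:**
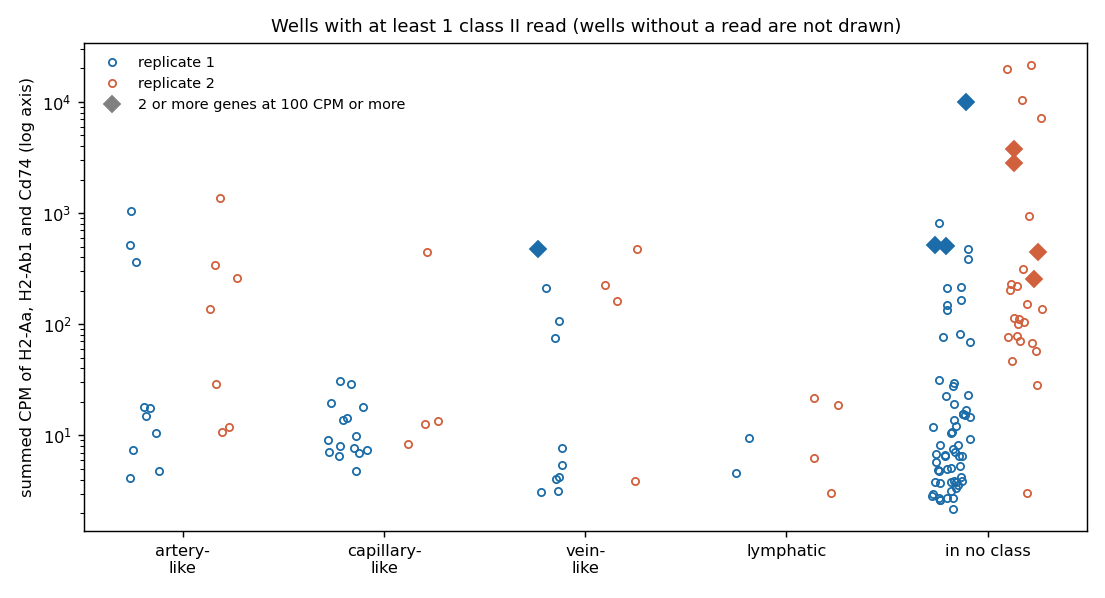
Summed level of *H2-Aa*, *H2-Ab1* and *Cd74* in each well with a read of any of them (CPM, log axis), by class and replicate, with the wells in no class on the right and diamonds for wells with 2 or more of the genes at 100 CPM or more. Of 147 wells with a read 56 are in the classes, 1 of the 8 diamonds is among them, and the highest wells, up to 21520 CPM, are in no class.

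The genes whose pattern was most like the class I set were low in lymphatic wells. Over the 16 sums per class and plate and 16012 genes, the highest Pearson correlations with the mean log level of *H2-K1*, *H2-D1* and *B2m* were those of *Mtmr11* (0.977), *Tmem255b* (0.972), *Sparcl1* (0.971), *Scarb1* (0.970) and *Sox17* (0.970). Their mean CPM was 130 to 3899 in blood sums and 3.60 to 123 in lymphatic sums, so the likeness follows the gap between those 2 kinds of sum. For the class II genes the closest were *Dusp18* (0.913), *Tent5c* (0.859), *Slc14a1* (0.850), *Nt5e* (0.846) and *Ptk2b* (0.826), at levels of 0.389 to 139 CPM. Sums from 1 plate share depth and pool, and these correlations are a description.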

How the data were processed

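Whole-number read counts per gene were deposited for each of the 4 plates. The authors aligned single 50-base reads to mm10 with TopHat2 2.1.1, removed duplicates with SAMtools 0.1.18 and counted with Subread 1.4.6-p5. The annotation release is not given in the sources used here. Gene symbols came from GENCODE (46005 of 46517 identifiers matched).

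Wells needed at least 600 counts, 500 to 8000 genes and a read of 2 of *Pecam1*, *Cdh5* and *Kdr*, which 1347 wells met. Blood EC wells had under 100 CPM of *Lyve1*, *Prox1*, *Ptprc*, *Pdgfrb* and *Kcnj8*, and were clustered (scran 1.30.0 size factors, 1000 variable genes, 15 components, Leiden resolution 0.4) without the 10 genes and their pathways. Clusters were named by the marker list with most genes raised in them, at least 3, and 128 wells stayed unnamed. No doublet caller was run. The study states a slightly smaller number of blood ECs than the 554 wells of the 3 rebuilt classes (295 and 259 by replicate), and splits it less evenly.

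Counts were summed per replicate and class and tested with edgeR 4.0.16 (quasi-likelihood, TMM, replicate as block, genes with at least 10 counts in 2 sums, Benjamini-Hochberg adjusted p under 0.05). Classes of 1 replicate come from the same pool of mice, which is why replicate is a block. The correlations of their deviations ran from 0.0203 to 0.133. The sources do not settle whether each replicate is its own pool or both share 1. With the block, p-values measure only how far class differences vary between the 2 replicates, not the shift common to all classes. That variation may be technical. Levels between genes are CPM per kb of the longest best-supported transcript, and shares have exact Clopper-Pearson intervals. DESeq2 1.42.0, limma 3.58.1 (pseudocount 1), and other filters, classes and depths were alternatives. The fit was tested on simulated data. The 10 members, the called pathway genes, the paired proteasome subunits, *Nlrc5*, *Ciita* and the 5 genes most alike were named by rule. Members and lists were chosen with earlier results of these data known.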

Additional observations from a re-analysis of the deposited data

Results flagged for a closer look

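*Psmb8* in the lymphatic wells was set apart by 1 plate. Plate A of replicate 1, with 8 of that replicate's 11 lymphatic wells, stood at 230 CPM, against a median of 9.04 CPM over the 4 plates, and the gap to the next plate was 0.968 of the whole range, above Dixon's 95% critical value. It was 1 of 28 groups of 4 plates tested in this way, and chance flags about 1 in 20. The *Psmb8* value of the lymphatic wells of replicate 1 rests on that plate and on few wells, since over the 11 wells the median was 16.6 CPM and the highest 917 CPM.

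Class II reads were also found in data that the comparisons between classes did not use. Wells in no class held 3538 reads of *H2-Aa*, *H2-Ab1* and *Cd74*. The highest summed level was 21520 CPM, of *H2-Aa* alone, in a well of plate B of replicate 2 with 14495 reads and 0 leukocyte markers read. The next, at 19840 CPM, was *Cd74* alone in a well that also had reads of *Laptm5* and *Lyz2*, genes of leukocytes. Wells at 10430 and 7220 CPM also had no read of a leukocyte marker. Of the 8 wells with at least 2 of the genes at 100 CPM or more, 4 had a read of a leukocyte marker. In 1 of them, a vein-like well, it was *Coro1a* alone at 6.07 CPM. For comparison, 386 of 459 and 175 of 191 set-aside or unnamed wells had no read of any of 7 leukocyte genes. Among blood wells these were 259 of 295 and 243 of 259.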

How the results depend on the processing

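*H2-K1* and *H2-D1* kept their direction in lymphatic wells in each of the 19 alternatives. The artery-like and vein-like comparison called 100 genes with DESeq2, 2 without the filter on low counts, 3 with sums per plate, 9 with the 300 CPM limit, 1 with classes from marker scores, 2 at the next resolution and 2 with thinned wells, against 0. The capillary comparison called 146 with DESeq2, 8 without the filter, 10 with sums per plate, 1 with the 300 CPM limit and 14 with thinned wells, against 0, and 0 without replicate 1 or 4 without replicate 2. None of the 10 genes was among them. The lymphatic comparison called 561 genes (279 higher, 282 lower). It called 2384 with DESeq2, 1006 with sums per plate, 930 with limma (294 higher, 636 lower), 285 with the 300 CPM limit, 372 with marker scores, 320 with plate A and 248 with plate B alone, and 308 without replicate 1 and 402 without replicate 2. The cause was not tested. Its median over all genes was −0.20, and −0.04 with DESeq2 size factors and −0.37 with limma. Without the replicate block the counts were 0, 0 and 567, and the pairing by replicate changed no call of the 10 genes. Leaving out a replicate leaves no residual degrees of freedom for sums per replicate, so sums per plate were tested instead, with plates of 1 replicate as units. That choice, and leaving out shallow wells, wells with leukocyte reads or lymphatic wells with under 4 markers, were made after the data were seen. A limit of 10 CPM on non-endothelial genes left 18 and 219 wells and gave no classes. Across alternatives, the lymphatic differences of the 7 class I pathway genes gained a call 13 times (*B2m* 3, *Tap1* 3, *Psmb8* 4, *Psmb9* 3) and lost it 2 times, both for *H2-K1*. *Psmb8* moved from −2.09 to −5.56 with plate B alone, *Psmb9* from −3.04 to −5.61 and *Tap1* from −2.22 to −5.83. With plate A alone these genes stood at −1.56, −2.40 and −0.70. The class II genes lie near 0 and rest on few wells, and the part of depth in this was not tested. Lymphatic wells are limited by depth in replicate 2 and by their number in replicate 1.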
